A study of Mus musculus with 9 samples.

Results

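The miRNAs mmu-miR-144, mmu-miR-451a, mmu-miR-486a, mmu-miR-486b, mmu-miR-142a, mmu-miR-223 and mmu-miR-122 (mmu for mouse, left out from here on) are typical of blood cells or liver, and their 7 entries were picked by name out of the 1164 mouse miRNAs counted in small extracellular vesicles (smEVs) of kidney epithelial cells. The entries miR-486a and miR-486b held the same count in every library and were taken as 1, which left 6 distinct members. They were grouped because such miRNAs can reach a vesicle pellet from serum in the growth medium, a route whose part in the values was not tested, since no library of medium alone was analysed here. The study states that leaving out serum reduced contamination with small particles to a minimum. It also reports no particle contamination in its medium control, by a count of particles and not of miRNA. The smEVs came from immortalised kidney medullary (KM) mouse cells of 3 genotypes, each a single line: Bbs4-/-, Bbs6-/- and wild-type (WT). All lines were grown with serum to confluency and then kept without serum for 24 h before the supernatant was taken. Bbs4 is a subunit of the BBSome, a complex that carries membrane proteins at the cilium, and Bbs6 is a chaperonin-like protein needed for its assembly. Each line gave 3 smEV preparations, which the study describes as independent, and libraries are called by their numbers in the deposited table, which run from 1 to 3 in Bbs4-/- and from 2 to 4 in Bbs6-/- and are 1, 3 and 4 in WT.

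These miRNAs are known for being made in few kinds of cell. miR-144 and miR-451a are cut from the same primary transcript, which the factor GATA1 switches on in red cell precursors. miR-451a is unusual in that the slicer Argonaute-2, not Dicer, completes it, and it is the dominant miRNA of red cells. miR-486 lies inside Ank1, the gene of the red cell membrane skeleton protein ankyrin-1, and is rich in red cells and in muscle. miR-142a is found in nearly all cells of the blood lineages, miR-223 is a miRNA of granulocytes and monocytes that is also carried by platelets, and miR-122 is the dominant miRNA of hepatocytes. All are also known from plasma and serum, and their mature sequences are closely conserved among mammals, so counts against mouse entries do not tell the species of origin.

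RefSeq sequences for the build GRCm38.p6 were matched by name to 4 of the 7 entries. They are shown because an entry name without an arm does not say which strand of the hairpin was counted, and because the seeds (bases 2 to 8, in capitals) set each miRNA apart. Each line reads 5′ to 3′.
miR-144-5p: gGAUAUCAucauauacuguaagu
miR-144-3p: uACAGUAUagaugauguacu
miR-451a: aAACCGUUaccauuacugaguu
miR-142a-5p: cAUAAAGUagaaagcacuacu
miR-142a-3p: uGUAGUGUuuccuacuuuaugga
miR-223-5p: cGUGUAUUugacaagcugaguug
miR-223-3p: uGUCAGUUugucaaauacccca

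None of these seeds was shared with another name among the 1679 mature names in the table, so 0 other listed mouse miRNAs have the same bases 2 to 8. The hairpin of miR-451a is shown with its mature strand in capitals, since that strand, bases 17 to 38 of 72, runs through the middle of the hairpin where other miRNAs have their loop.
mir-451a hairpin: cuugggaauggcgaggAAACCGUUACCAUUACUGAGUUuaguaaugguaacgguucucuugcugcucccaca

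In the GENCODE vM21 annotation of GRCm38, Mir144 is at chr11:78073005-78073070 and Mir451a at chr11:78073170-78073241, both on the plus strand, with starts 165 bp apart and no protein-coding gene over either. Mir486, the gene of miR-486a, is at chr8:23142555-23142682 on the plus strand in an intron of Ank1. The gene of miR-486b, Mir3107, lies within it on the minus strand, at chr8:23142573-23142662. Mir142 is at chr11:87756864-87756927, in an intron of its host transcript Mir142hg, and Mir223 at chrX:96242817-96242926, within an exon of the non-coding transcript F630028O10Rik. The entries on the strand opposite to 2 of the members, miR-451b and miR-142b, had a count of 0 in all 9 libraries.

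All 6 members were detected, and all were rare. Together they held 203 counts over the 9 libraries, 0.00973% of all miRNA counts. miR-486 had 100 of these, miR-122 had 49, miR-451a had 31, miR-144 had 11, miR-223 had 8 and miR-142a had 4. miR-486 was the only member with a count in every library. A library with a count of 0 may still hold a miRNA at a rate of up to 3 counts, and miR-486 exceeded 3 counts in 9 libraries, miR-451a and miR-122 in 4 each, miR-144 in 1, and miR-142a and miR-223 in 0. By mean level over the libraries miR-486 ranked 170, miR-122 194 and miR-451a 203 among the 1164 entries.

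**Figure D1:**
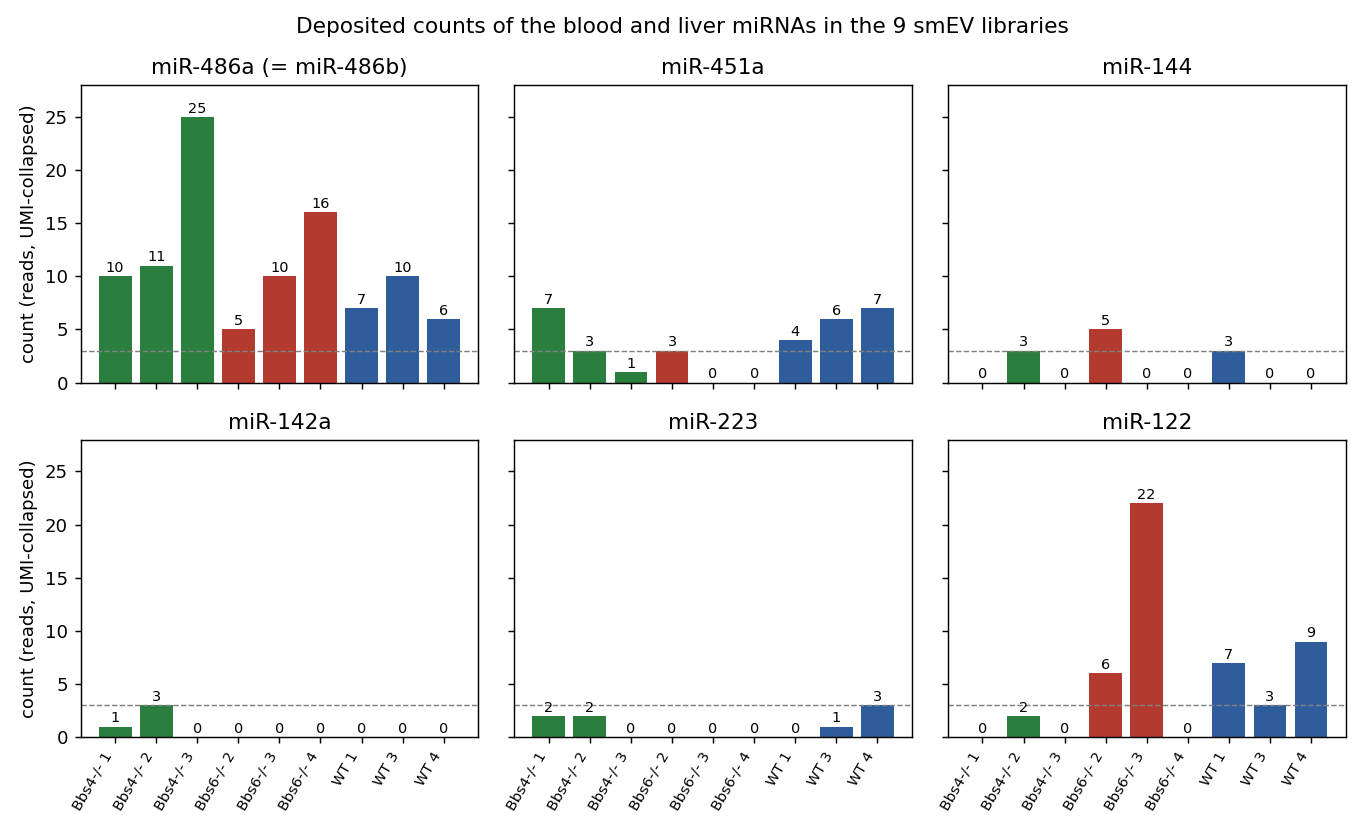
Deposited count (y axis, reads after UMI collapsing) of each distinct member in each library (x axis, line and library number), with the number printed on each bar and a dashed line at 3 counts. miR-486a is above the line in all 9 libraries and reaches 25, miR-122 reaches 22 in 1 Bbs6-/- library, and miR-142a and miR-223 never pass the line.

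The libraries differed in depth, with 64118 to 130905 miRNA counts in WT and 176935 to 457163 in the mutants. Counts were scaled with edgeR's TMM method, and levels are given as CPM (counts per 1000000 counts of the scaled library), with exact binomial (Clopper-Pearson) 95% intervals that cover counting error only. The 3 counts correspond to between 6.98 CPM in the deepest and 36.5 CPM in the shallowest library. As a check of the cell type, miR-200a, miR-200b and miR-429 of the epithelial miR-200 family had at least 102, 609 and 110 counts in every library, while miR-200c of the same family had 1 or 2 counts in each WT library and miR-141 had a count of 0 in at least 1 library. Of the 7 entries in the epithelial list 4 had more than 3 counts in every library, and miR-205 had 12 counts in all. Lists of other cell types were not empty. In every library miR-7a of the endocrine list had at least 149 counts, miR-128 of the neural list 22 and miR-143 of the mesenchymal list 6. The mean of miR-7a, 4640 CPM, lay between those of miR-200a (2416 CPM) and miR-200b (10043 CPM). The table holds no Bbs4 or Bbs6 transcript, so the genotypes were not checked. In vesicle preparations, fewer vesicles carrying a miRNA and less of it per vesicle cannot be told apart.

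Among the red cell miRNAs, miR-486 (miR-486a and miR-486b as 1 entry) was found in all libraries of all 3 lines. Its counts were 10, 11 and 25 in Bbs4-/- libraries 1, 2 and 3, which correspond to 63.2, 49.3 and 58.2 CPM. The Bbs6-/- libraries 2, 3 and 4 had 5, 10 and 16 counts, or 27.4, 34.2 and 45.8 CPM. The WT libraries 1, 3 and 4 had 7, 10 and 6 counts, or 85.1, 89.1 and 38.8 CPM. Libraries of each mutant overlapped with WT, whose library 4 lay below every Bbs4-/- library, and the lowest Bbs4-/- library lay just above the highest Bbs6-/- library. The mean level was 56.9 ± 7.07 CPM in Bbs4-/-, 35.8 ± 9.29 CPM in Bbs6-/- and 71.0 ± 27.9 CPM in WT (SD, n = 3 each). No pair of lines passed the test for miR-486 given further on.

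miR-451a had the same order of mean levels as miR-486, with WT above Bbs4-/- and Bbs4-/- above Bbs6-/-, but a count of 0 in 2 libraries. WT libraries 1, 3 and 4 had 4, 6 and 7 counts, or 48.6, 53.4 and 45.3 CPM, the tightest spread of any member in any line with counts in all its libraries (49.1 ± 4.11 CPM, SD, n = 3). Their counting intervals, 13.2 to 125, 19.6 to 116 and 18.2 to 93.2 CPM, are far wider than that spread. The tightness therefore does not show that the level was uniform in WT. The mean was 20.01 ± 21.7 CPM in Bbs4-/- and 5.49 ± 9.51 CPM in Bbs6-/- (SD, n = 3 each), a spread wider than the level itself. In Bbs4-/- the counts were 7, 3 and 1, or 44.3, 13.4 and 2.33 CPM in libraries 1, 2 and 3. In Bbs6-/- they were 3, 0 and 0, with 16.5 CPM in library 2, and the intervals of libraries 3 and 4 reached up to 12.6 and 10.6 CPM. Every WT library thus lay above every mutant library, although the lowest WT library (45.3 CPM) and the highest mutant library (44.3 CPM) were nearly level and their counting intervals overlapped. Such a separation of WT above all mutant libraries was seen in 6.15% of the 309 miRNAs that had 9 or more counts over all libraries, and among the members tested it was seen for miR-451a alone.

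Set against miR-486, miR-451a made up 42.5% of the counts of the pair in WT (17 of 40 counts, 95% interval 27.0% to 59.1%), 19.3% in Bbs4-/- (11 counts against 46, interval 10.05% to 31.9%) and 8.82% in Bbs6-/- (3 counts against 31, interval 1.86% to 23.7%). These shares do not depend on the scaling of the libraries, and the intervals of WT and Bbs6-/- did not overlap. The intervals treat the counts of a line as 1 sample and leave out the spread between its libraries, so they are no test of the lines.

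miR-144, from the same transcript as miR-451a, was counted in 1 library of each line: 3 counts (13.4 CPM) in Bbs4-/- library 2, 5 counts (27.4 CPM) in Bbs6-/- library 2 and 3 counts (36.5 CPM) in WT library 1. The other 6 libraries had 0. miR-144 and miR-451a were therefore seen together in these 3 libraries, and miR-451a without miR-144 in another 4. In Bbs6-/- library 2 the 5 counts of miR-144 exceeded the 3 of miR-451a, while over all libraries miR-451a had 31 counts and miR-144 had 11.

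The leukocyte miRNAs were at or near 0. miR-142a had 1 and 3 counts in Bbs4-/- libraries 1 and 2 and 0 in the other 7 libraries. miR-223 had 2 counts in each of Bbs4-/- libraries 1 and 2, 1 and 3 counts in WT libraries 3 and 4, and 0 in the other 5, among them all 3 Bbs6-/- libraries. Neither passed 3 counts anywhere, so no fold is given between lines. A count of 0 allows up to 10.6 CPM in Bbs6-/- library 4 but up to 44.8 CPM in WT library 1 by the upper end of the interval, so miR-142a was not detectable in WT at this depth and cannot be called lower there than in Bbs4-/-.

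The hepatocyte miRNA miR-122 had the widest range of counts in Bbs6-/- and stood near 0 in Bbs4-/-. WT libraries 1, 3 and 4 had 7, 3 and 9 counts, or 85.1, 26.7 and 58.2 CPM (mean 56.7 ± 29.2 CPM, SD, n = 3). Bbs4-/- libraries 1, 2 and 3 had 0, 2 and 0 counts, with 8.96 CPM in library 2, and all lay below every WT library. Bbs6-/- libraries 2, 3 and 4 had 6, 22 and 0 counts, or 32.9, 75.2 and 0 CPM. The highest count of miR-122 in any library and a 0 in a library of 423784 counts thus came from the same line, with intervals of 47.1 to 114 CPM and of 0 to 10.6 CPM that did not overlap.

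**Figure D2:**
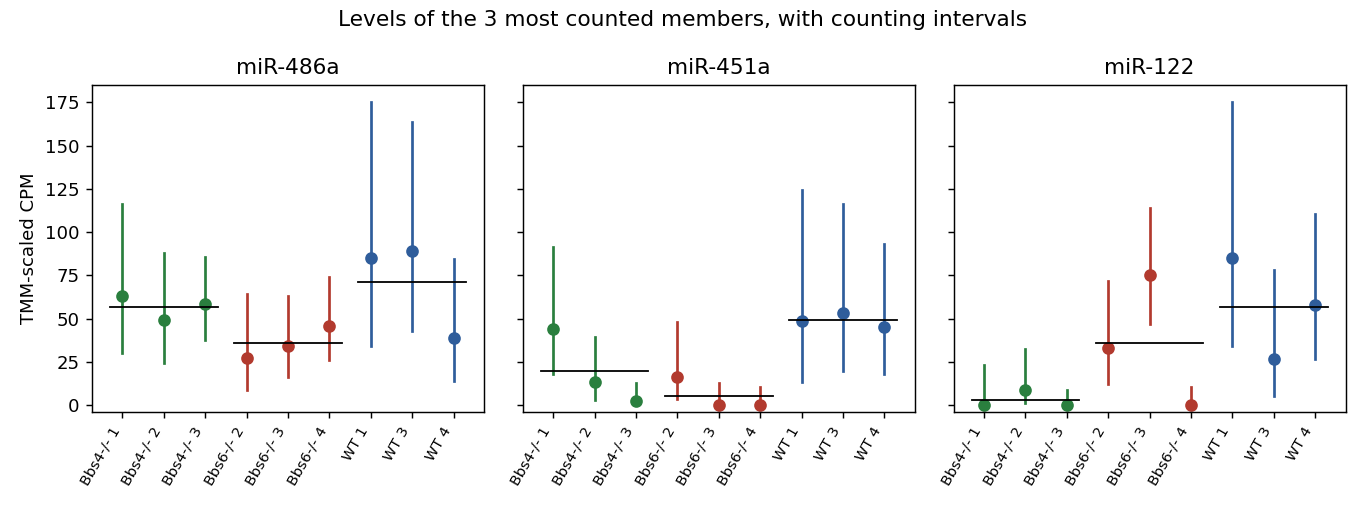
TMM-scaled CPM (y axis) of miR-486a, miR-451a and miR-122 in each library (x axis), with exact binomial 95% intervals for counting error as vertical lines and the mean of each line as a black bar. miR-486a stays between 27.4 and 89.1 CPM. miR-451a is nearly level in WT, with wide intervals, and falls to 0 in 2 Bbs6-/- libraries. miR-122 is spread from 0 to 75.2 CPM within Bbs6-/-.

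Each mutant was compared with WT to ask whether the lines load these miRNAs differently. All miRNAs whose counts in the 6 libraries added up to 6 or more went into edgeR's quasi-likelihood test. With the limits the study used, a call needed an adjusted p (Benjamini-Hochberg) below 0.1 together with a change of 2 or more log2 units up or down. In Bbs4-/- against WT, 5 of the 6 members were tested and 1, miR-122, was called, lower in Bbs4-/-, where 6.17% of all 308 miRNAs tested were called and 2.27% were called lower. Its log2 fold change was -4.16 with a standard error of 1.33 (95% interval -7.02 to -1.30, adjusted p = 0.0586, edgeR). Pooled over libraries, 2 counts against 19 make a 22.1-fold lower rate, with an exact interval of 5.32 to 195-fold for counting error. DESeq2 also called miR-122 (adjusted p = 0.0391). The call in edgeR was lost when Bbs4-/- library 1 or 3, or WT library 1 or 4, was left out, with adjusted p of 0.181, 0.138, 0.172 and 0.180 (edgeR).

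None of the other members tested was called in Bbs4-/-. miR-451a had an estimate of -1.52 on the log2 scale with a standard error of 1.04 (95% interval -3.75 to 0.71, adjusted p = 0.380, edgeR), although its libraries did not overlap with WT. Together with miR-122 that makes 2 members without overlap, both lower, where 31.8% of the miRNAs tested did not overlap in either direction and 11.0% were lower without overlap. miR-486 had -0.39 (standard error 0.60, 95% interval -1.69 to 0.90, adjusted p = 0.738, edgeR), so a change of 4-fold either way lies outside its interval. miR-144 and miR-223 had -1.23 and -0.76 with standard errors of 2.04 and 1.69, and intervals so wide that a change of 4-fold in either direction is inside them. All 5 estimates were below 0, with a median of -1.23, while the median of all miRNAs tested was -0.02 and 50.6% of them were below 0. Pooled over libraries, miR-144 had 3 counts in each of these lines and miR-223 had 4 in each, with the WT libraries the shallower. The members are not replicates of a line, so their shared sign is not read as a result.

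In Bbs6-/- against WT, 4 members were tested and 0 were called, where 4.03% of the 298 miRNAs tested were called and 1.34% were called lower. The counts of miR-142a and miR-223 were too few to test. miR-451a came nearest, with an estimate of -3.29 (log2, standard error 1.42, 95% interval -6.50 to -0.09, unadjusted p = 0.0452, adjusted p = 0.207, edgeR), and an unadjusted p under 0.05 was reached by 1 of the 4 members and by 22.1% of all miRNAs tested. DESeq2 also called 0 members, and left miR-451a without an adjusted p. Pooled over libraries, 3 counts against 17 make a 13.4-fold lower rate of miR-451a, with an exact interval of 3.87 to 71.2-fold for counting error. Without Bbs6-/- library 2, which holds all 3 counts, miR-451a was called lower (fitted log2 value -6.26, which rests on libraries at 0 and is no bound, adjusted p = 0.0306, edgeR). Without Bbs6-/- library 4 the value was -2.54, and over all alternatives with one its adjusted p ranged from 0.0306 to 0.399. Its libraries did not overlap with WT, as was the case for 29.2% of the miRNAs tested in either direction and 11.7% in this direction. All 4 estimates were below 0, with a median of -0.76, while the median of all miRNAs tested was -0.01 and 50.3% of them were below 0. miR-122 had -0.61 (standard error 1.19, 95% interval -3.30 to 2.07, adjusted p = 0.810, edgeR) and miR-486 had -0.90 (standard error 0.67, 95% interval -2.41 to 0.61, adjusted p = 0.492, edgeR). The comparisons of the mutants with WT use the same WT libraries, which are shallower than every mutant library. The members are also not replicates of a line. The shared direction of their estimates is therefore not read as a result, within a comparison or between the comparisons.

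The direct contrast between the mutants, fitted to 9 libraries and to the 309 miRNAs whose counts there added up to 9 or more, called 0 of the 4 members tested, where 3.88% of all miRNAs were called. miR-122, which was called against WT in Bbs4-/- only, had an estimate of -3.46 (log2) in Bbs4-/- against Bbs6-/- (standard error 1.52, 95% interval -6.73 to -0.20, unadjusted p = 0.0391, adjusted p = 0.263, edgeR), so the mutants were not shown to differ in miR-122. An unadjusted p under 0.05 was reached by miR-122 alone of the 4 members and by 16.2% of all miRNAs tested, and DESeq2 also called 0 members. Leaving out single libraries moved this estimate between -6.05, without Bbs4-/- library 2, and -2.37, without Bbs6-/- library 3. The estimate of miR-451a was 1.92 (standard error 1.47, adjusted p = 0.599, edgeR), and it moved to 0.63 without Bbs4-/- library 1 and to 5.05 without Bbs6-/- library 2. That of miR-486 was 0.64 (standard error 0.61, 95% interval -0.67 to 1.96, adjusted p = 0.703, edgeR). The libraries of the mutants did not overlap for miR-486 alone of the 4, and for 22.0% of all miRNAs tested. Of the 4 estimates 2 were below 0, with a median of -0.10, against a median of 0.04 over all miRNAs, of which 48.2% were below 0.

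**Figure D3:**
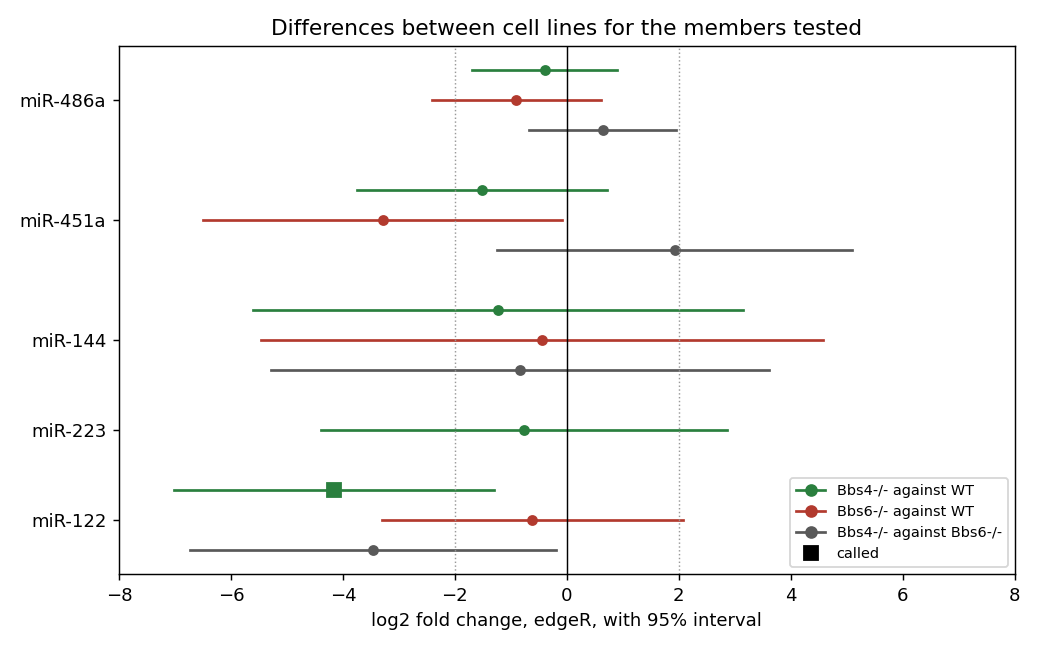
Log2 fold changes of the members tested (x axis, edgeR estimate with 95% interval) in the comparisons of Bbs4-/- with WT, Bbs6-/- with WT and Bbs4-/- with Bbs6-/-. The square marks the only called value, miR-122 in Bbs4-/- against WT at -4.16, and dotted lines stand at -2 and 2.

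The summed count of the 6 members spanned a narrower range than the depth of the libraries. Bbs4-/- libraries 1, 2 and 3 summed to 20, 24 and 26 counts. Bbs6-/- libraries 2, 3 and 4 summed to 19, 32 and 16, and WT libraries 1, 3 and 4 to 21, 20 and 25. The deepest library had 7.13 times the total count of the shallowest, yet the highest summed count, 32, was 2.00 times the lowest, 16. The count of miR-155, a miRNA of activated immune cells that many other cells also make, spanned a factor of 4.40, from 128 to 563. That of miR-486 went from 5 to 25, and that of the other members together from 0 to 22. The range was not computed for other miRNAs or for other sums. The narrow range of the sum is therefore not read as a trait of the members. Scaled to depth, the members summed to 255, 178 and 162 CPM in WT libraries 1, 3 and 4, to 126, 107 and 60.5 CPM in Bbs4-/- libraries 1, 2 and 3, and to 104, 109 and 45.8 CPM in Bbs6-/- libraries 2, 3 and 4. Every WT library lay above every mutant library, with means of 198 ± 50.0 CPM in WT, 98.2 ± 33.9 CPM in Bbs4-/- and 86.5 ± 35.3 CPM in Bbs6-/- (SD, n = 3 each). The deepest library of each mutant had the lowest sum of its line, and the shallowest WT library the highest of all. Depth is the denominator of these levels and every WT library is the shallower, so depth and genotype cannot be told apart here, and no test is given for a sum over chosen miRNAs.

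**Figure D4:**
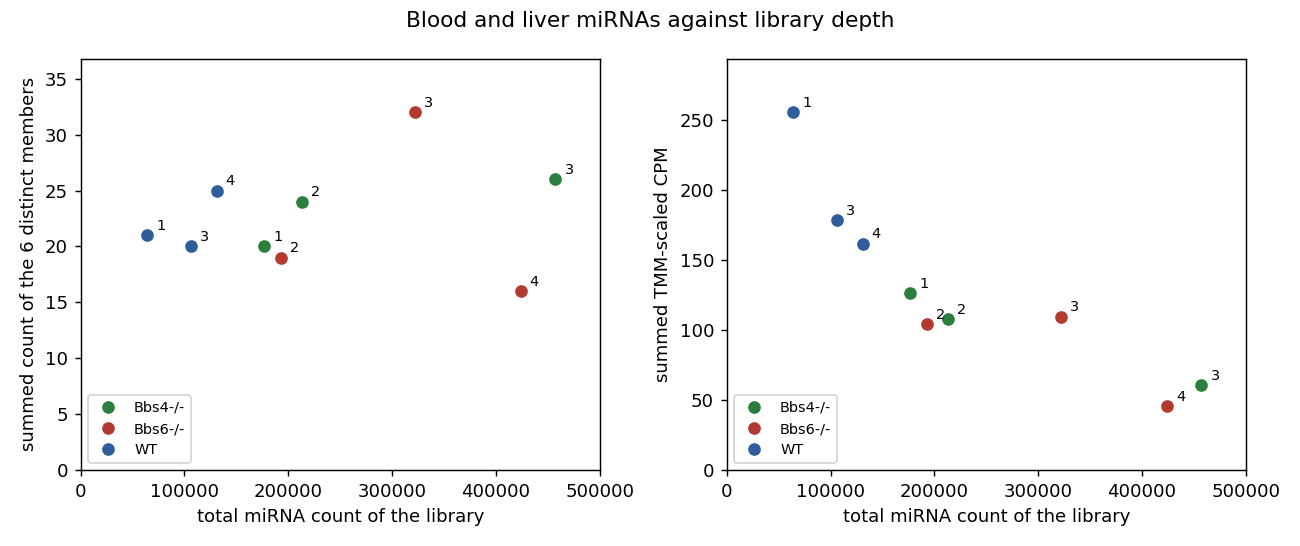
Summed count (left, y axis) and summed TMM-scaled CPM (right, y axis) of the 6 distinct members against the total miRNA count of the library (x axis), 1 point per library with its number, coloured by line. The summed count stays between 16 and 32 over the whole range of depth, while the CPM goes from 255 in the shallowest WT library to 45.8 and 60.5 in the 2 deepest libraries.

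Without miR-486, the members summed to 14, 10 and 19 counts in WT libraries 1, 3 and 4. Bbs4-/- libraries 1, 2 and 3 had 10, 13 and 1 of them, and Bbs6-/- libraries 2, 3 and 4 had 14, 22 and 0. The lowest sums, 1 and 0, came from the 2 deepest libraries, where miR-486 had 25 and 16 counts, but the highest, 22, came from the next deepest, where all 22 were miR-122. Bbs4-/- library 2 had a count of all 6 members, each WT library of 4, and Bbs6-/- library 4 of 1.

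Other miRNAs of the same tissues were read from lists of names. Of 9 further entries of blood and endothelium, 6 had a count and 4 had more than 3 counts in every library. Their most abundant entries, miR-155, miR-342 and miR-146b, had mean levels of 1452, 323 and 276 CPM, all of them above every member, and these miRNAs are also made by cells outside the blood. miR-150, a miRNA of mature lymphocytes, had 1 count in all. Of 6 further liver entries 4 had a count and 0 had more than 3 counts in every library. They were led by miR-194, miR-192 and miR-148a at mean levels of 119, 87.7 and 60.7 CPM, with miR-148a ranging from 0 to 267 CPM. The pair of miR-194 and miR-192 is also typical of kidney epithelium, whereas miR-802, shared by liver and kidney, had 0. The leukocyte members, miR-142a and miR-223, stood at 2.20 and 5.54 CPM in the same libraries as the broadly made miR-155. The list of striated muscle bears on miR-486, which muscle also makes: of its 9 entries 6 were at 0 in all libraries, while miR-206 had a mean level of 1640 CPM and at least 119 counts in each. All 10 entries of the pluripotent cell list were at 0.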

How the data were processed

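Small RNA of smEV pellets was sequenced in 9 libraries. The deposited counts were made by the authors, who trimmed adapters with cutadapt 1.9, removed low-quality reads, collapsed reads of the same sequence and unique molecular identifier, counted reads per mouse miRNA with miRDeep2 and kept the largest count of a miRNA with several entries. The submitters' processing notes name the build GRCm38 and give no role for it, and the miRBase release is not given in the sources used here. Reads of other species that match a mouse miRNA would be counted too.

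Libraries were grouped by the genotype in the labels. The numbers of the Bbs6-/- and WT columns are not those of the labels, so these columns are replicates of their genotype only. With 1 line per genotype, p-values measure the spread between preparations of a line.

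The deposited counts were fitted with edgeR 4.0.16 under R 4.3.3, by its quasi-likelihood test after TMM scaling, with Benjamini-Hochberg adjustment over all miRNAs tested. DESeq2 1.42.0 was an alternative. Standard errors were taken from the log2 fold change and the F statistic. Intervals of counts were computed with scipy 1.17.1, and plots drawn with matplotlib 3.10.9. All 6 distinct members were named, and other miRNAs only from lists of tissue markers, at most the 3 most abundant of a list with 10 counts in some library. The entries miR-429, miR-141, miR-205, miR-150 and miR-802 fall outside this rule and were named after their values were seen. The members, lists and tests were chosen with earlier results of these data known. Alternatives were other scaling, filters, thresholds and tests, merged identical entries, another set of libraries in the fit, leaving out each library, and a replicate block, which was added after seeing the data.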

Additional observations from a re-analysis of the deposited data

How the results depend on the processing

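Of 214 alternative values for the 13 member fold changes tested, 204 kept their direction and their side of the threshold. Only 1 of the 13 was called in the main fits, so for the others keeping their side meant staying uncalled. Alternatives that change only a threshold reuse the main estimates and cannot turn a sign. For the 1 call, 10 of 16 alternative values kept it and 6 did not. The 1 call, miR-122 in Bbs4-/- against WT, went to 0 calls when all 9 libraries were fitted together (adjusted p = 0.121, edgeR), at an adjusted p under 0.05, and with filterByExpr, which tested 0 members in that comparison. Leaving out 1 library at a time gave 0 or 1 call in Bbs4-/- against WT and 0 or 1 in Bbs6-/- against WT, where the 1 call was miR-451a without Bbs6-/- library 2. The log2 fold change of miR-122 in Bbs4-/- ranged from -6.42 to -3.36 without single libraries, and its adjusted p from 0.0257 to 0.181 over all alternatives (edgeR and DESeq2). The sign turned for miR-144 in Bbs6-/- against WT without Bbs6-/- library 3 or 4 (0.13 and 0.35, range -1.14 to 0.35) and for miR-122 without Bbs6-/- library 4 (0.051, range -2.03 to 0.051). The direct contrast had 0 calls under all 20 alternatives. Counting miR-486a and miR-486b separately raised the summed level to 155, 122 and 269 CPM in Bbs4-/-, Bbs6-/- and WT. Without single libraries it ranged from 84.0 to 117, from 75.0 to 107 and from 170 to 217 CPM. A replicate block on the numbers in the column names, chosen after seeing the data and fitted to all 9 libraries, gave 1, 0 and 0 calls among the members in Bbs4-/- against WT, Bbs6-/- against WT and the direct contrast, with an adjusted p of 0.0298 for miR-122 in Bbs4-/- (edgeR). Over all miRNAs it called 21, 20 and 14. Without the block, fits to the same 9 libraries called 18, 12 and 12, and the main fits called 19, 12 and 12. With no limit on the fold change the main fits called 47, 45 and 25. With the limit, the direct contrast had 7 without Bbs4-/- library 1. Deviations from the group means correlated over 0.1 in 5 of the 6 pairs of libraries from different lines with the same number (Pearson's r -0.148 to 0.344, across 309 miRNAs). Among pairs with different numbers this was so in 5 of 21 (r -0.245 to 0.131). The labels do not say whether libraries with the same number were prepared together. Such a pairing was not tested, and the main fits leave it out. Depth limits these results, since no member but miR-486 passed 3 counts in every library.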
